A study of Homo sapiens with 6 samples.

Results

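The genes described here are 9 that supply acetyl-CoA, the donor of the acetyl group in lysine acetylation: ACLY, ACSS1, ACSS2, PDHA1, PDHB, DLAT, SLC25A1, CS and CRAT. They were chosen by their function and not by a measured value, though earlier results of these data were known. They are 9 of 20033 protein-coding genes, or of 62663 annotated genes, in GENCODE 44 on hg38. For each gene, the ChIP-seq peaks that overlapped its annotated body extended by 5 kb on both sides were collected, and this stretch is called its window. The cells were labelled HepG2, an established line from a human liver tumour, and were grown with no addition (control) or with sodium benzoate (SB, 10 mM for 24 h). Chromatin digested with micrococcal nuclease was pulled down with pan antibodies against acetyllysine (Kac) or benzoyllysine (Kbz), which give neither the protein nor the position that carried the modification. There were 6 libraries, 1 for each of 6 groups, and 3 of them gave the peak lists used here, SB Kbz, SB Kac and control Kac. The labels say that no peaks were called for the control Kbz library, so Kbz in SB-treated cells had no untreated counterpart. With 1 library in each group, replicate error was not known for any value, and no test was made.

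Acetyl-CoA is made mainly in mitochondria, where the pyruvate dehydrogenase complex forms it from pyruvate. It does not cross the inner membrane itself. Citrate synthase (CS) joins its acetyl group to oxaloacetate, the citrate carrier SLC25A1 moves the citrate out, and ATP-citrate lyase (ACLY) cleaves it in the cytosol and nucleus, which gives the acetyl-CoA that histone acetyltransferases use. Acetyl-CoA synthetases make it from acetate instead, ACSS1 in mitochondria and ACSS2 in the cytosol and nucleus, while carnitine acetyltransferase (CRAT) passes acetyl groups between CoA and carnitine. PDHA1 and PDHB encode the alpha and beta subunits of the E1 component of the pyruvate dehydrogenase complex, and DLAT encodes its E2 component, the acetyltransferase.

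The sequences of 4 promoters are shown because they span the range of Kbz found at the 9 genes: DLAT had the highest ranked Kbz peak over its start, PDHA1 the lowest ranked, and ACSS2 and SLC25A1 had Kac but no Kbz over it. Each line gives the 250 bases before the transcription start site (TSS), 5′ to 3′ on the strand of the gene, from RefSeq on GRCh38.p14. The stretches are chr11:112025158-112025407 for DLAT and chrX:19343677-19343926 for PDHA1, both on the plus strand, chr20:34876362-34876611 on the plus strand for ACSS2, and chr22:19178737-19178986 on the minus strand for SLC25A1. Capitals mark CCAAT, the core that the factor NF-Y binds, and GGGCGG, the GC box of SP and KLF factors, read on either strand, and DLAT holds neither.
DLAT: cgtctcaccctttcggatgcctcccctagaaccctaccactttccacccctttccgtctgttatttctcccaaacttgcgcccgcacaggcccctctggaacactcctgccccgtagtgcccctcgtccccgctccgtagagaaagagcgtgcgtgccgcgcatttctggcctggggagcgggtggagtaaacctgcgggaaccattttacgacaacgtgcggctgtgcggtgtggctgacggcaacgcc
PDHA1: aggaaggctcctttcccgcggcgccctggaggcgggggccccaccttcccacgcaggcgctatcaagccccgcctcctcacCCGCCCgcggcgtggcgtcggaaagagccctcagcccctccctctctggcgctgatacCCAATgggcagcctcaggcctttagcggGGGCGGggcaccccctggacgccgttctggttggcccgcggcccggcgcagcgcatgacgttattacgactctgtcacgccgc
ACSS2: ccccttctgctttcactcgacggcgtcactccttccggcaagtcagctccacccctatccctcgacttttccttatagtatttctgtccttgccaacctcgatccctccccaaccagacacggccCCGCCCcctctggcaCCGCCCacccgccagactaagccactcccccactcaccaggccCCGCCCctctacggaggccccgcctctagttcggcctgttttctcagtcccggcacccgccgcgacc
SLC25A1: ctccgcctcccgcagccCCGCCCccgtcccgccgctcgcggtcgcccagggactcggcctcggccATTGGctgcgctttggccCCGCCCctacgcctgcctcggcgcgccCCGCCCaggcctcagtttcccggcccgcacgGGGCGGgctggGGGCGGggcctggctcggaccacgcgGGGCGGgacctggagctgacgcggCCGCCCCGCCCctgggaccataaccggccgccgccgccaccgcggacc
All 250 bases of each of these stretches lay under control Kac and under SB Kac peaks. In DLAT and PDHA1 they also lay wholly under a Kbz peak, and in ACSS2 and SLC25A1 0 of the 250 bases did.

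RefSeq promoters, taken from 250 bases before to 50 bases after the start, were matched for 8 of the 9 genes, with no entry for CRAT, and each was identical to the hg38 sequence. They were rich in C and G, with a median GC content of 70.7% (range 62.0% to 80.3%) against 62.3% over 21613 promoters of protein-coding genes. Their CpG ratio, the number of CpG observed over the number that the base composition predicts, had a median of 0.829 (0.593 to 0.945) against 0.742. SLC25A1 had the highest values of both and held 45 CpG in 300 bases. GGGCGG occurred in 7 of the 8 promoters, all but that of DLAT, and in 45.0% of all 35116 promoters. For motifs this larger set was used, which was not limited to protein-coding genes. SLC25A1 held 8 such sites, of which a pair shares 1 base, from position −233 to position −38, where the start is 0. CCAAT occurred in 5 of the 8, those of ACLY, PDHA1, PDHB, SLC25A1 and CS, and in 34.6% of all promoters. The single CCAAT of PDHA1 began at position −111. The E-box CACGTG was found in PDHB alone of the 8 (7.26% of all promoters). TATAAA, the TATA box, occurred in 0 of the 8 (11.5%), as did the cAMP response element TGACGTCA (1.85%), the NRF1 core GCGCATGC (3.05%) and TCACCCCA, a core of the sterol regulatory element (1.54%). A match of letters describes a sequence and does not show that a factor bound it. Of the printed promoters without Kbz over the start, that of SLC25A1 held CCAAT and that of ACSS2 did not.

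Values of the whole series bear on these genes in a few ways. The SB Kbz peaks numbered 24308, while Kac had 63282 peaks under SB and 70326 in control. Read totals are not part of these lists and depth is unknown. The fold of a peak, a linear ratio over the background computed by the authors' peak caller, was used only as a percentile within its own list, where a percentile is the share of the list's peaks with a lower fold. The label HepG2 was checked against liver markers. Of 9 of them, ALB, AFP, APOA1, APOA2, TTR, SERPINA1, HNF4A, FOXA1 and FOXA2, 0 had their TSS under a peak of any list, where all protein-coding genes gave 45.8% for Kbz and, for Kac, 59.1% in control and 60.4% under SB. ALB, which encodes albumin, and FOXA2 had no peak of any list in their windows. Of 5 blood markers 0 had their TSS under a peak of any list, and of 4 neuronal markers 3 did in control Kac (SYT1, NEUROD1 and GAD1), 3 in SB Kac and 2 in SB Kbz. Peaks show marked chromatin and not RNA, and the part of the cells' identity in the values below was not tested.

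All 9 genes had peaks of all 3 lists in their windows. Among all protein-coding genes this share was 72.3% for SB Kbz, 81.4% for SB Kac and 82.6% for control Kac. The canonical TSS, that of the transcript GENCODE marks as representative, was under a control Kac peak in 9 of 9 genes, against 59.1% of protein-coding genes. It was under an SB Kac peak in 9 of 9 as well, against 60.4%, and thus under Kac in both conditions in 9 of 9, against 55.7%. Kbz covered the TSS of 6 genes, ACLY, ACSS1, PDHA1, PDHB, DLAT and CS, against 45.8% of protein-coding genes. Of the 3 genes left, SLC25A1 and CRAT carried Kbz beside the TSS, within 3 kb of it. In ACSS2 the nearest Kbz peak ended 3390 bp upstream of the TSS. Among protein-coding genes whose TSS lay under SB Kac, 75.4% also had Kbz over it, and these 6 of 9 genes are read against that share.

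**Figure D1:**
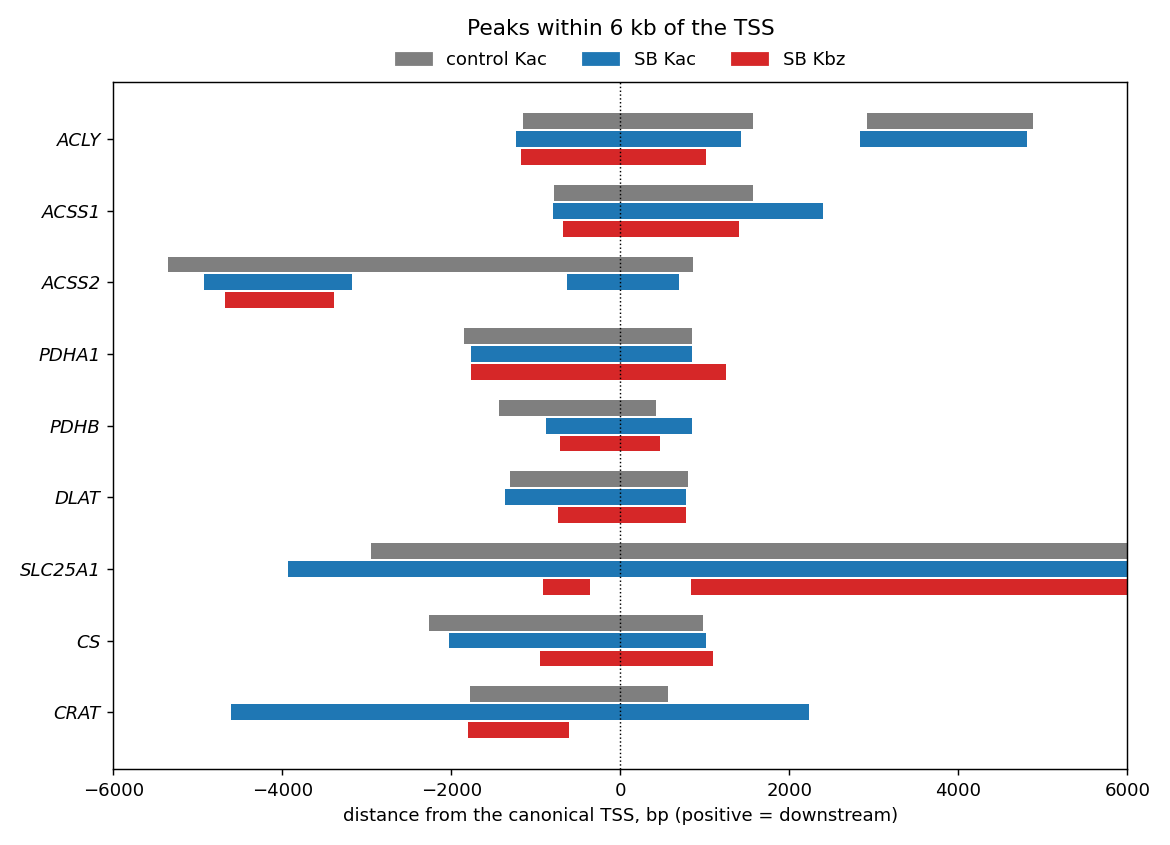
Peaks of control Kac (grey), SB Kac (blue) and SB Kbz (red) within 6 kb of the canonical TSS (dotted line) of the 9 genes, with the distance from the TSS in bp on the horizontal axis and positive values in the direction of transcription. A reader should see Kac of both conditions over every TSS, and Kbz over 6 of 9, with Kbz next to the TSS of SLC25A1 and CRAT and 3390 bp upstream of that of ACSS2.

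The windows of the 9 genes summed to 374145 bp. Control Kac peaks covered 14.0% of this (22 peaks), SB Kac peaks 13.3% (18 peaks) and SB Kbz peaks 7.06% (14 peaks). The median share over the 9 windows was 7.17% for Kbz, 9.93% for SB Kac and 11.1% for control Kac, against 2.32%, 7.14% and 7.24% over all protein-coding genes. The range was wide. In SLC25A1, whose body is only 3159 bp long, peaks took 59.9%, 91.9% and 84.4% of the window in the same order, while in DLAT they took 3.09%, 4.39% and 4.31%. PDHA1 was the only gene of the 9 whose window had a larger share under Kbz (10.9%) than under SB Kac (9.43%). The order of the summed shares, control Kac above SB Kac, turned where weak peaks were left out, with 11.0% and 11.8% at a −log10 q of at least 5.

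**Figure D2:**
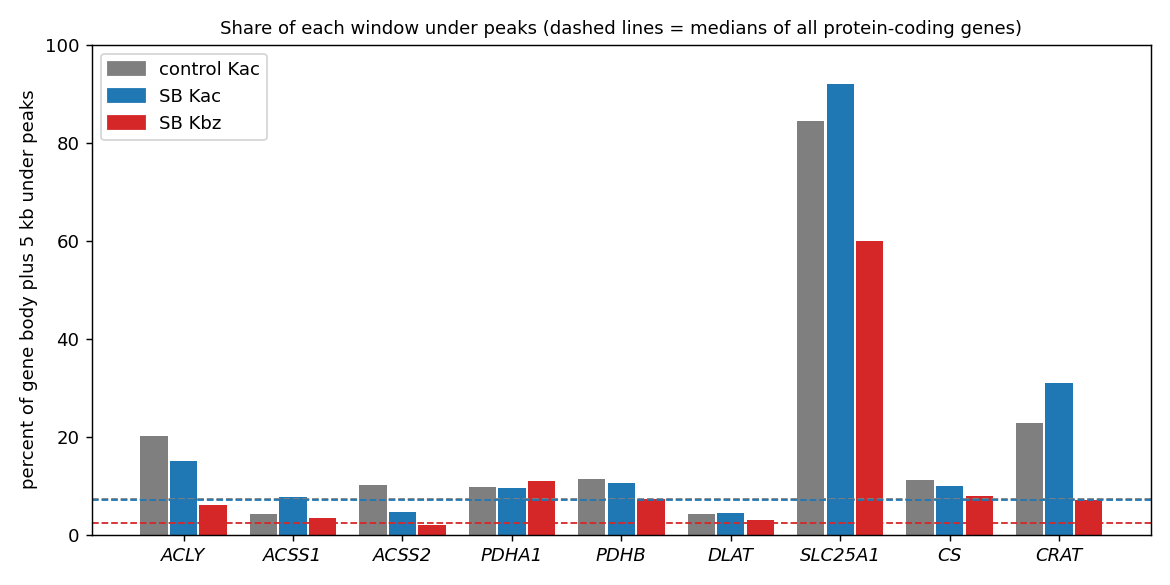
Share of the window (gene body plus 5 kb, in percent) under peaks of control Kac (grey), SB Kac (blue) and SB Kbz (red) for each of the 9 genes, 1 library per bar and no error bars, with dashed lines at the medians of all protein-coding genes. SLC25A1 stands far above the others in all 3 lists, at 84.4%, 91.9% and 59.9%.

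The peaks of different lists met mainly at starts of genes. Of the 22 control Kac peaks in the windows, 15 (68.2%, Wilson 95% interval 47.3 to 83.6, counting error only) overlapped an SB Kac peak by at least 1 bp, against 69.7% of control Kac peaks in all protein-coding windows. In the other direction, 16 of the 18 SB Kac peaks met control Kac (88.9%, 67.2 to 96.9), against 71.7%. All 14 Kbz peaks (100%, 78.5 to 100) overlapped an SB Kac peak and also a control Kac peak, against 95.5% and 94.6% of Kbz peaks in protein-coding windows. Each Kbz peak of these 9 genes therefore met chromatin that was under Kac in the control library as well. A Kbz peak was met by 13 of the 18 SB Kac peaks (72.2%, 49.1 to 87.5), against 36.4%. Split by place, 12 of the 13 SB Kac peaks over the canonical TSS of a protein-coding gene, a member or its neighbour, met a Kbz peak, against 90.1% over all such peaks. Of the 5 SB Kac peaks elsewhere 1 met Kbz, against 19.9%. The TSS peak without Kbz was that of ACSS2, and the peak elsewhere with Kbz lay inside CRAT.

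The 7 control Kac peaks that SB Kac did not meet lay in ACLY (4), CRAT (2) and ACSS2 (1), and 0 of them was over a TSS of the 9 genes. They were short and weak, with a median length of 901 bp (439 to 1457) and a median fold percentile of 18.9 (3.16 to 46.5). The 15 that met SB Kac were longer, at a median of 2354 bp, and had a median percentile of 81.6 (11.4 to 95). At a −log10 q of at least 2 in both lists, 13 of 17 control Kac peaks in the windows overlapped an SB Kac peak. At a −log10 q of at least 5, 12 of 12 did. The SB Kac peaks that met no control Kac numbered 2, a peak of 1212 bp in the flank of ACLY (percentile 9.82) and a peak of 470 bp in an intron of ACSS1 (42.8).

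**Figure D3:**
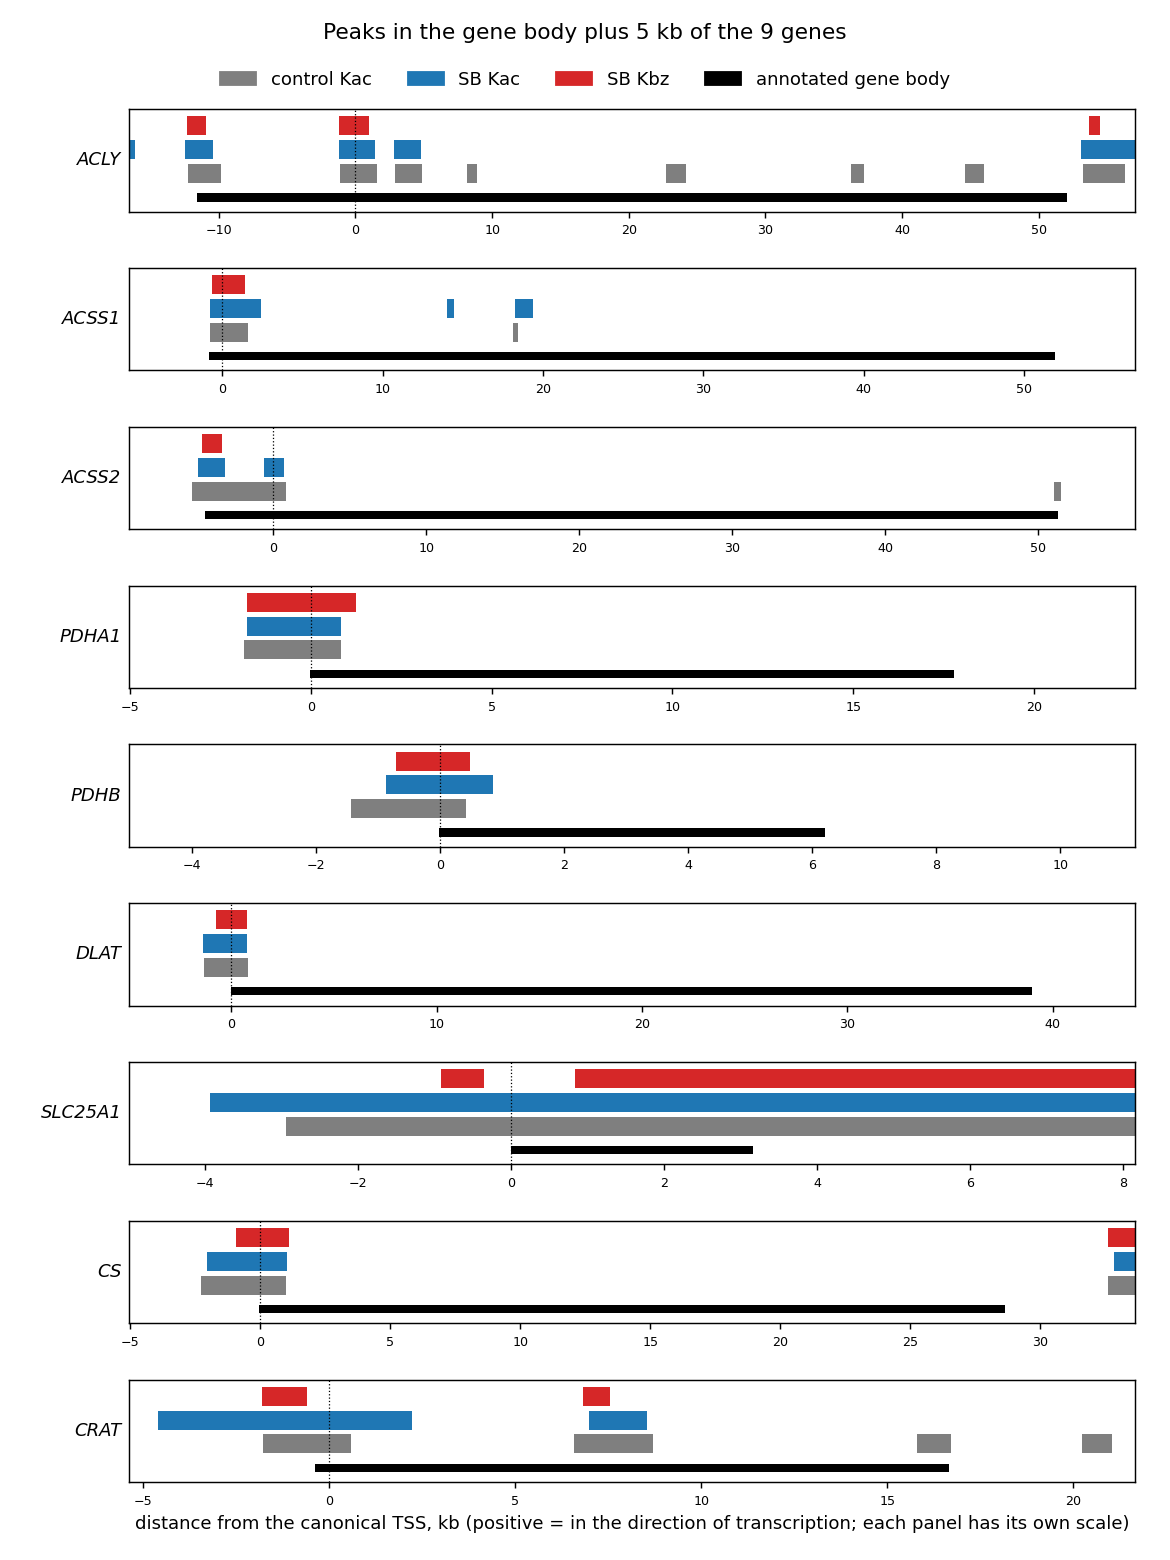
Maps of the windows of the 9 genes, each on its own scale in kb from the canonical TSS (dotted line, positive in the direction of transcription), with peaks of control Kac (grey), SB Kac (blue) and SB Kbz (red) above the annotated gene body (black) and peaks cut at the window's edge. The 7 control Kac peaks without SB Kac, 4 of them inside ACLY, lie away from the canonical TSS, and each Kbz peak lies over or partly over Kac.

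To compare how strong the peaks over the TSS were, their percentiles within each list were used. For the 9 genes the median percentile was 89.1 in control Kac (79.7 to 95) and 88.0 in SB Kac (74.4 to 97.6), against medians of 83.8 and 87.2 over protein-coding genes with such a peak. For the 6 genes with Kbz over the TSS it was 63.9 (29.4 to 96.0), against 70.8. The Kbz ranks of these genes thus ran over a wider range than their Kac ranks, and whether this is particular to them was not tested. From control Kac to SB Kac 5 of the 9 genes ranked higher, against 65.6% of 11159 protein-coding genes, and the median difference was 0.0152 points against 2.56. From SB Kac to Kbz 0 of the 6 genes ranked higher, against 6.3% of 9121 genes, and the median difference was −22.7 against −18.0.

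**Figure D4:**
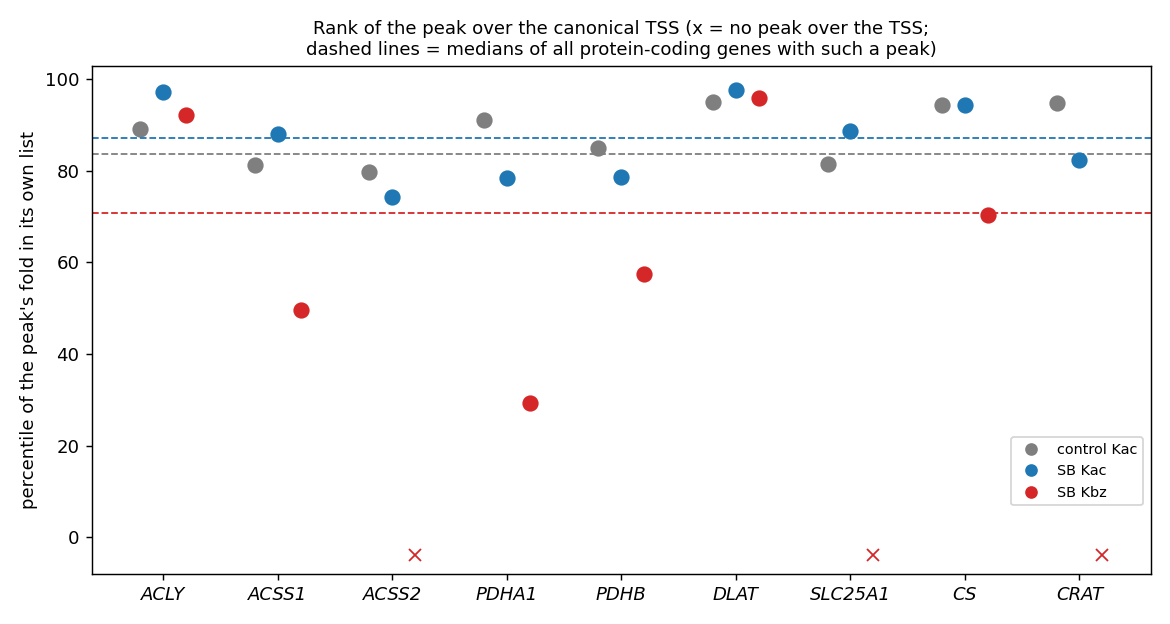
Percentile of the fold of the peak over the canonical TSS within its own list, for control Kac (grey), SB Kac (blue) and SB Kbz (red), 1 library per point, with crosses where no Kbz peak covered the TSS and dashed lines at the medians of all protein-coding genes with such a peak. Kac points lie between 74.4 and 97.6 while Kbz points run from 29.4 in PDHA1 to 96.0 in DLAT.

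The 3 genes for subunits of the pyruvate dehydrogenase complex each had a single peak per list, and it covered the TSS. DLAT (ENSG00000150768.17, chr11:112025408-112064404, plus strand) ranked at percentile 96.0 in SB Kbz, against 97.6 in SB Kac and 95 in control Kac. Its folds were 7.23, 6.57 and 5.21, each over the background of its own library. The control Kac peak spanned 2113 bp (chr11:112024099-112026211), the SB Kac peak 2151 bp (chr11:112024037-112026187) and the Kbz peak 1516 bp (chr11:112024672-112026187). The Kac peaks shared 96.0% of their joint length, and the Kbz peak lay wholly inside the SB Kac peak, with the same downstream end. DLAT was thus near the top of every list, and its step of −1.61 points from SB Kac to Kbz was the smallest of the 6 genes.

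PDHA1 (ENSG00000131828.14, chrX:19343893-19361718, plus strand) joined Kac over the TSS to the lowest Kbz rank of the 6 genes. The control Kac peak of 2696 bp (chrX:19342077-19344772) ranked at percentile 91.1, the SB Kac peak of 2624 bp (chrX:19342154-19344777) at 78.4 and the Kbz peak of 3022 bp (chrX:19342154-19345175) at 29.4. Its folds were 4.77, 4.05 and 3.34. The Kbz peak began at the same base as the SB Kac peak, covered it in full and reached 1248 bp past the TSS against 850 bp for SB Kac. It was 1.15 times as long as the SB Kac peak, and 2.03% of 9121 protein-coding genes had a ratio as high or higher, while the median gene had 0.647 and 94.1% had a Kbz peak shorter than the Kac peak. The PDHA1 Kbz peak was therefore long and weak at once, with the largest difference in rank from SB Kac among the 6 genes (−48.9 points, with 6.65% of genes at or below). The fold is averaged over each broad peak, so length and rank are not separate observations. From control Kac to SB Kac the rank differed by −12.8 points, with 4.79% of genes at or below. At a −log10 q of at least 5 no Kbz peak was left at PDHA1, since its value was 3.14.

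PDHB (ENSG00000168291.13, chr3:58427630-58433857, minus strand) lay between its partners. Its peaks ranked at 85.0 in control Kac (chr3:58433416-58435273, 1858 bp), 78.7 in SB Kac (chr3:58432983-58434707, 1725 bp) and 57.5 in SB Kbz (chr3:58433358-58434547, 1190 bp). All 9 annotated starts of PDHB were under the peak in each list. The Kac peaks overlapped by 1292 bp, 56.4% of their joint length, against a median of 76.9% over protein-coding genes. Upstream, the control Kac peak reached 1441 bp from the TSS and the SB Kac peak 875 bp, and downstream they reached 416 and 849 bp. The E1 subunits PDHA1 and PDHB thus had lower ranks under SB than in control for Kac, in 1 library each, as ACSS2 and CRAT did. The PDHB rank differed by −6.32 points, with 11.8% of genes at or below. DLAT had a rank higher by 2.69 points, near the median difference of 2.56 over protein-coding genes.

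CS (ENSG00000062485.19, chr12:56271699-56300391, minus strand) had a Kac rank of 94.4 in both conditions. The TSS peaks spanned 3246 bp in control Kac (chr12:56299353-56302598), 3042 bp in SB Kac (chr12:56299323-56302364) and 2051 bp in SB Kbz (chr12:56299231-56301281), and each covered 17 of the 25 annotated CS starts. The Kbz peak ranked at 70.3. It extended 1099 bp past the TSS, against 977 bp in control Kac and 1007 bp in SB Kac, but only 951 bp upstream, against 2268 and 2034 bp. The TSS of the antisense RNA gene CNPY2-AS1, 236 bp inside CS, was under the same peaks, so these cannot be assigned to CS alone. The flank of CS held 1 more peak per list, over the TSS of COQ10A, a gene of coenzyme Q function, with percentiles of 78.2 and 89.5 for Kac of control and SB and 20.4 for Kbz.

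SLC25A1 (ENSG00000100075.10, chr22:19175581-19178739, minus strand) was the member most covered by all 3 lists. A single Kac peak ran across the gene and far beyond its end, 12522 bp in control cells (chr22:19169165-19181686, percentile 81.6) and 13149 bp in SB-treated cells (chr22:19169527-19182675, 88.8). Its window shares ranked among protein-coding genes at percentile 99.8 for SB Kbz, 99.8 for SB Kac and 99.7 for control Kac. Kbz was split there. A peak of 7865 bp (chr22:19170038-19177902, percentile 77.5) covered the body from 834 bp past the TSS, and a peak of 565 bp (chr22:19179093-19179657, 42.1) lay 357 bp upstream of it. The stretch between them, chr22:19177903-19179092, was 1190 bp long, held all 5 annotated starts of SLC25A1 and the whole promoter printed above, and was under Kac in both conditions. A TSS under no Kbz peak, with Kbz within 1 kb on both sides, occurred in 0.901% of the 12091 protein-coding genes with SB Kac over the TSS. The peak of 565 bp had a −log10 q of 3.83, so at a threshold of 5 SLC25A1 had no Kbz peak on the upstream side. The long Kbz peak also covered the TSSs of 2 long noncoding RNA genes, LINC01311 and ENSG00000289481, beyond the end of SLC25A1.

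ACLY (ENSG00000131473.17, chr17:41866917-41930542, minus strand) had the most peaks, 8 in control Kac, then 5 under SB, and 3 Kbz peaks. Over its canonical TSS the control Kac peak (chr17:41917381-41920108, 2728 bp) ranked at 89.1, the SB Kac peak (chr17:41917521-41920186, 2666 bp) at 97.2 and the Kbz peak (chr17:41917937-41920125, 2189 bp) at 92.3. The difference of 8.1 points from control Kac to SB Kac was the most positive among the 9 genes, while 26.6% of protein-coding genes had one as large or larger. After DLAT it was the gene with the highest Kbz rank. Inside the gene, 4 control Kac peaks between chr17:41872936 and chr17:41910817 had no SB Kac or Kbz peak over them, at percentiles from 3.16 to 25.9. A further Kac peak, which began 2917 bp past the TSS in control and 2839 bp past it in SB, ranked at 11.4 and 38.4 and met no Kbz. The other Kbz peaks lay at starts of neighbouring genes. The TSS of ODAD4, a gene of the dynein arms of cilia, at −11666 bp from the ACLY TSS and next to the outermost start of ACLY, was under all 3 lists (84.3, 86.7 and 56.9). The TSS of KLHL11, a member of the kelch family, in the other flank was under Kac of both conditions (76.7 and 76.1), and a Kbz peak of 859 bp (61.1) lay beside it.

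The mitochondrial acetyl-CoA synthetase ACSS1 (ENSG00000154930.15, chr20:25006230-25058980, minus strand) ranked at 81.3 in control cells and 88.0 under SB for Kac, and at 49.6 for Kbz. Its control Kac peak spanned 2354 bp (chr20:25056571-25058924) and lay wholly inside the SB Kac peak of 3197 bp (chr20:25055736-25058932), which reached 2403 bp past the TSS against 1568 bp. The Kbz peak of 2080 bp (chr20:25056736-25058815) lay inside both. It had a −log10 q of 4.39, so that it was left out at a threshold of 5. Within an intron, a control Kac peak of 349 bp (37.4) and an SB Kac peak of 1140 bp (7.64) began 18108 and 18258 bp past the TSS and shared 199 bp.

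In ACSS2 (ENSG00000131069.20, chr20:34872146-34927962, plus strand), the nuclear and cytosolic synthetase, Kac differed in shape between the conditions. A single control Kac peak of 6204 bp (chr20:34871263-34877466, percentile 79.7) ran from 5349 bp upstream to 854 bp past the canonical TSS and covered 13 of the 20 annotated ACSS2 starts. In its place SB Kac had 2 peaks, chr20:34871689-34873433 (1745 bp, 84.2) and, over the canonical TSS, chr20:34875977-34877301 (1325 bp, 74.4). Between them 2543 bp (chr20:34873434-34875976) with 4 annotated ACSS2 starts were under no SB Kac peak. Control Kac peaks over a protein-coding TSS that overlapped 2 or more SB Kac peaks made up 5.37% of 10361. The SB Kac peak over the TSS was 0.214 times as long as the control peak, and 0.421% of protein-coding genes had a ratio as low or lower. The only Kbz peak of the window, 1288 bp long (chr20:34871935-34873222, 66.5), lay in the upstream block and ended 3390 bp before the canonical TSS. This block holds 2 upstream ACSS2 starts and, on the other strand, the TSS of GGT7, a member of the gamma-glutamyltransferase family, so the peak cannot be assigned to either gene. Kbz within 3 kb of the TSS but not over it was found in 15.8% of protein-coding genes with SB Kac over the TSS, and ACSS2 was outside this group too, while SLC25A1 and CRAT were in it.

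CRAT (ENSG00000095321.18, chr9:129094142-129111189, minus strand) shares its start region with PTPA, which encodes an activator of protein phosphatase 2A and starts 622 bp upstream on the other strand. The control Kac peak over the CRAT TSS spanned 2342 bp (chr9:129110226-129112567) at percentile 94.8. The SB Kac peak spanned 6840 bp (chr9:129108566-129115405) at 82.5, contained the control peak in full and reached 4612 bp upstream and 2227 bp downstream. This was 2.92 times the control length, and 1.4% of protein-coding genes had a ratio as high or higher. The rank differed by −12.3 points, with 5.02% at or below. Since the fold is averaged over each broad peak, its rank and its length are not separate observations. Over the canonical TSS, the Kac peak was thus longer under SB than in control at CRAT. It was shorter at ACSS2, where the control peak met 2 SB Kac peaks. The Kac peaks over the CRAT TSS also covered the PTPA TSS in both conditions, so they cannot be assigned to CRAT alone. Kbz covered chr9:129111403-129112594 (1192 bp, 83.5), which took in the PTPA TSS by 12 bp and ended 610 bp short of the CRAT TSS. None of the 14 CRAT starts under the Kac peaks was under Kbz. Inside CRAT all 3 lists had a peak that began 6575, 6986 and 6806 bp past the TSS, at percentiles of 52.8, 53.1 and 15.7, and 2 control Kac peaks at the far end of the gene (19.9 and 46.5) had no SB Kac peak.

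The other genes of the pathway were described from a list of 34. Kbz covered the TSS of 26 of them (76.5%), SB Kac that of 29 (85.3%) and control Kac that of 30 (88.2%), against 45.8%, 60.4% and 59.1% of all protein-coding genes. Of the 29 with SB Kac over the TSS, 26 had Kbz there, against 75.4% of such protein-coding genes. Of 10 further genes of the pyruvate dehydrogenase complex and its control, 9, 9 and 8 had a TSS covered by control Kac, SB Kac and Kbz, respectively. PDP1, a phosphatase that activates the complex, had peaks 353, 273 and 505 bp from the TSS and not over it, and MPC1, a subunit of the mitochondrial pyruvate carrier, had Kac over the TSS in both conditions and Kbz 504 bp away. Of 8 genes listed under acetyl-CoA from fat and ketone bodies, not all of which make it themselves, the counts were 8, 7 and 7. The exception was CPT1A, which admits fatty acids to mitochondria, with control Kac over the TSS (percentile 50.2), SB Kac 369 bp away and Kbz 683 bp away. HADHA and HADHB, the subunits of the trifunctional protein, share 1 start region and 1 peak per list, so they are not separate observations. The 3 genes of carnitine and acetyl group transport had their TSS under all 3 lists. Among them SLC33A1, the acetyl-CoA transporter of the endoplasmic reticulum, had a Kbz rank of 93.6. Of 6 genes of citrate handling 5, 5 and 4 had the TSS covered. ME1, the cytosolic malic enzyme, had the highest Kbz rank of the list at 98.6, with Kac at 90.7 in control and 96.8 in SB. ACO1, the cytosolic aconitase, had Kac over the TSS (62.9 and 78.9) and no Kbz peak in its window. SLC13A5, a plasma membrane citrate transporter, had no peak of any list over its TSS. In each of the 26 genes of this list with Kbz over the TSS, Kac of both conditions covered it too, as in the 6 described above. The same held for SB Kac in 9121 of the 9170 protein-coding genes with Kbz over the TSS, so it is not particular to these genes.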

How the data were processed

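The data were ChIP-seq peak lists of control Kac, SB Kac and SB Kbz, 1 library each. Per the labels and the study's methods, the authors aligned reads to hg38 with Bowtie2 2.2.6, kept unique reads, removed duplicates with SAMtools 0.1.19 and called peaks per library with MACS2 2.1.1 at a false discovery rate of 0.01. The broad cutoff and the background track are not given in the sources used here. The deposited lists reached a q of 0.0494, past the stated rate. The deposited fold, a linear ratio averaged over each broad peak, was turned into a percentile within each list. Thresholds were set on the −log10 p and −log10 q that the authors deposited, and the authors' integer score was not used. Broad calling joins neighbouring enriched stretches, so peak lengths and gaps depend on its cutoff. Depth is unknown, and duplicates were removed without molecular identifiers, so the Wilson 95% intervals cover counting error only.

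Peaks on 24 chromosomes were intersected with GENCODE 44 genes (body plus 5 kb, at least 1 bp). The canonical TSS was that of the representative transcript. The overlap code was checked with query positions planted on and beside the real control Kac peaks, and its counts on the real lists were compared with those of bedtools. All 9 genes were named, besides neighbours whose TSS lay under their peaks, marker genes, and those of 34 pathway genes with no TSS call, differing calls or the 3 highest Kbz ranks. HADHA and HADHB, which share a peak, were named after their values were seen. The members and lists were chosen with earlier results of these data known. The alternatives were a −log10 q of at least 5 or 2, the top 15000 peaks per list by −log10 p, other windows, other TSS definitions and an overlap of at least 50%. The input libraries were not analysed here. A further liver marker of the list fixed for the label check is not reported here. Python 3.11.15, numpy 2.4.6, pandas 2.3.3, scipy 1.17.1, matplotlib 3.10.9, samtools 1.23.1 and bedtools 2.31.1 were used.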

Additional observations from a re-analysis of the deposited data

How the results depend on the processing

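Of 67 values recomputed for 12 results, 51 stayed within bounds, which were 1.5 times for a count of genes and the Wilson interval of the main value for a share, and 16 shares left that interval. The interval of a summed window share counts bases and is narrow, so small shifts pass it. The summed window share under peaks was 11.0% (control Kac), 11.8% (SB Kac) and 5.08% (SB Kbz) at a −log10 q of at least 5, and 12.5% and 12.9% for the Kac lists at a −log10 q of at least 2. With the 15000 strongest peaks it was 6.3%, 10.4% and 5.78%, in gene bodies alone 10.4%, 8.51% and 4.5%, and with 10 kb flanks 12.4%, 11.5% and 5.97%. The share of control Kac peaks with an SB Kac peak was 100% at a −log10 q of at least 5 (12 of 12) and 100% with the 15000 strongest (8 of 8). Fewer peaks enter under each stricter threshold, and the cause beyond that was not tested. At a −log10 q of at least 5, Kbz covered the TSS of 4 genes (not ACSS1 and PDHA1), and it covered those of 5 with the 15000 strongest peaks (not PDHA1), of 7 with any annotated start, and lay within 1 kb of it in 8. No paired analysis was possible because every group is a single library, and for the same reason no replicate could be left out. Unknown depth limits every comparison of peak numbers between lists.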

Other observations

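Genes that use acetyl-CoA in the cytosol, or hydrolyse it, were looked at from the same list of pathway genes, with 1 library per list and no test. Of 5 genes of use, Kbz covered the TSS of 3, SB Kac that of 4 and control Kac that of 4. The shares over all protein-coding genes were 45.8%, 60.4% and 59.1%. ACACA, the acetyl-CoA carboxylase of fatty acid synthesis, had its TSS under all 3 lists, at percentiles of 94.8, 94.3 and 89.3 of fold, and its Kbz rank was the third highest of the 34 genes. Its paralogue ACACB, the carboxylase form at the outer mitochondrial membrane, had a control Kac peak of 821 bp over the TSS at percentile 4.62, while the nearest SB Kac peak was 14432 bp away and the nearest Kbz peak 17537 bp away. At FASN, the fatty acid synthase, the TSS was under SB Kac and not under control Kac, though Kac of both conditions lay within 3 kb of it. An SB Kac peak of 13739 bp at percentile 87.5 covered the TSS, the nearest control Kac peak was 672 bp away, and Kbz was 786 bp away. Of the 2 hydrolases, ACOT8 had its TSS under control Kac, SB Kac and SB Kbz, at percentiles of 94.6, 85.4 and 67.6. The other, ACOT12, a cytosolic acetyl-CoA hydrolase, had no peak of any list in its window. Its nearest peak lay 25513 bp away in control Kac, 26045 bp in SB Kac and 91561 bp in SB Kbz.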
